A study of Mus musculus with 6 samples.

Results

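The messages of 10 mouse genes that other studies reported as targets of the microRNA miR-9 were followed in 32D cells, a mouse myeloid line that depends on interleukin-3. The genes are Cxcr4, Hmga2, Elavl1, Creb1, Stmn1, Tgfbr1, Tgfbr2, Ptch1, Zc3h12a and Bace1, taken from outside the ETS, forkhead, REST, sirtuin, SOCS and RUNX families. All 34 probe sets annotated to these 10 genes alone were used, of 45037 on the array, and 23 of the 34 passed a filter on dim signals that kept 22519 probe sets. Each of the 10 genes had at least 1 probe set above that filter. The study measured messenger RNA in 3 samples of 32D cells with the miR-9 construct, which expressed both miR-9 and miR-9*, and in 3 samples with the empty vector. Cells of both arms grew in RPMI medium with 10% fetal calf serum, antibiotics and 10 ng/ml murine interleukin-3, and carried replicate numbers 1 to 3. The sources used here do not say how the replicate cultures were separated, whether the lines were clones or which promoter drove the construct, so p-values measure the spread between these samples.

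A microRNA guides an Argonaute protein to messages whose 3' untranslated region pairs with its seed, and this can lower the message, its translation or both. The hairpin precursor of miR-9 yields a functional strand from each arm, and the strand called miR-9* is the 3p arm. miR-9 is best known from the developing nervous system and is also studied in myeloid leukaemia. The arrays read messages only, so an effect on translation alone has no value here.

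The mature sequences of both strands are shown because the seeds, in capitals, are what a target message would have to pair with. They come from RefSeq, build GRCm38.p6, 5' to 3', and were the same at the loci Mir9-1, Mir9-2 and Mir9-3.
miR-9 (mmu-miR-9-5p): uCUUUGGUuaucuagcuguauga
miR-9* (mmu-miR-9-3p): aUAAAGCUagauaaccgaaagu
The seeds, bases 2 to 8, differ between the strands, and 0 other mature mouse microRNAs in the RefSeq table have either seed. The Mir9-1 hairpin, chr3:88215598-88215686 on the plus strand, is shown to place both strands, in capitals, on the arms of 1 precursor.
Mir9-1: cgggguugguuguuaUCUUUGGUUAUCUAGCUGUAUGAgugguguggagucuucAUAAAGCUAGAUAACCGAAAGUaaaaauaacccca
The labels do not say which hairpin the construct carried. The untranslated regions of the 10 genes were not searched for seed matches, since no transcript sequences were used here. The mature strands are too short for this array, so no value checks how much of either strand the cells made. The host transcript Mir9-3hg of the cells' own Mir9-3 locus (1434730_at) read 9.00, 27.3 and 7.34 in miR-9/9* replicates 1 to 3 and 14.2, 13.1 and 13.3 in empty vector replicates 1 to 3, with pairs of both signs.

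Signals on the arrays had medians of 12.0 to 15.1, and Spearman correlations between arrays ran from 0.919 to 0.942. Of 11 myeloid markers 10 had a probe set above the filter, among them Ptprc (CD45) and Prtn3 (proteinase 3), while Elane (neutrophil elastase) lay below it. None of 3 B lymphoid, 4 stromal or 4 neural markers with a probe set lay above it, and 1 of 4 T lymphoid and 1 of 4 epithelial markers did. Of the 4 erythroid markers above the filter, 3 passed as higher at an adjusted p of 0.05 when the replicate number was a block. Of all probe sets 1.02% passed as higher in that fit. Without the block 0 erythroid markers passed. The summed signal of 5 erythroid markers, 1 probe set each, was 1217 to 1669 in miR-9/9* cells and 620.3 to 908 in empty vector cells. Of the 2 probe sets of Csf2rb, a subunit of the interleukin-3 receptor, 1 passed as lower in the blocked fit, where 0.933% of all probe sets did. It had a log2 fold change of -0.35 (limma adjusted p = 0.0476, and 1.0 without the block). The part of these markers in the values below was not tested. Fewer cells of a type and less RNA per cell cannot be told apart in such samples.

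None of the 10 genes passed the test. In limma's comparison of the arms 0 of the 23 probe sets passed an adjusted p of 0.05, where 0.00888% of all probe sets passed as higher and 0% as lower. With the replicate number as a block, which compares the arms within a number, again 0 of the 23 passed, where 1.02% of all probe sets passed as higher and 0.933% as lower. At an unadjusted p under 0.05 the fit without a block held 0 higher and 1 lower of the 23, against 1.69% and 1.89% of all probe sets. The blocked fit held 2 higher and 3 lower, against 7.81% and 6.82% of all. All tests here are two-sided. Adjusted p-values are by Benjamini-Hochberg over all 22519 probe sets, or over those that an alternative setting kept. A fold change here is the arms' difference in mean log2(signal + 16), a scale on which changes of dim probe sets come out too small.

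The fold changes lay on both sides of 0, with 12 of the 23 probe sets lower and 11 higher. Their median was -0.02 on the log2 scale, beside 0.01 over all probe sets above the filter. Its sign was not stable, at 0.0198 over all 34 probe sets of the 10 genes, 0.0244 with a stricter filter and 0.0851 with array weights. Within replicate numbers 7 of the 23 were lower in 3 of 3 pairs and 4 were higher in 3 of 3. Over all probe sets 16.3% were lower and 20.1% higher in 3 of 3 pairs. The arms did not overlap in 1 of the 23, which was lower, where 4.09% of all probe sets were lower and 4.29% higher without overlap. The 95% interval without a block excluded a 2-fold fall on the shifted scale for 22 of the 23 probe sets, and with the block for all 23. A 1.5-fold fall was excluded for 18 without the block and 21 with it, and a 1.5-fold rise for 19 and 20.

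**Figure D1:**
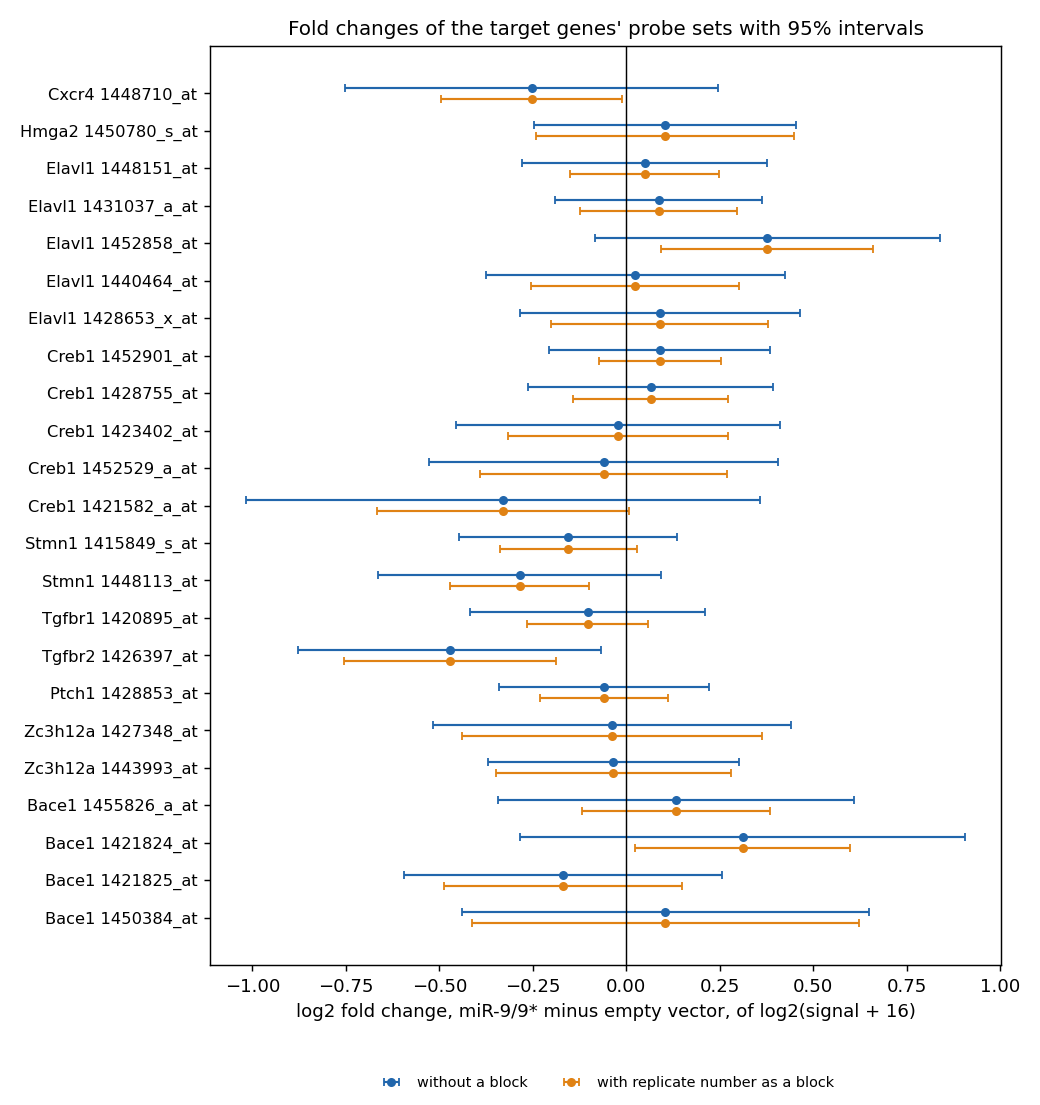
Log2 fold change of log2(signal + 16), miR-9/9* minus empty vector, for the 23 probe sets above the filter, with 95% intervals from limma without a block (blue) and with the replicate number as a block (orange), both before any adjustment for multiple tests. Points scatter on both sides of 0, Tgfbr2 lies farthest to the left at -0.47, and 0 of the 23 passed after adjustment in either fit.

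Of the cell surface receptors, Tgfbr2 had the largest difference. Transforming growth factor beta is bound by the type II receptor kinase, Tgfbr2, which then activates the type I receptor kinase, Tgfbr1, and this phosphorylates Smad proteins. Tgfbr2 (probe set 1426397_at) had signals of 174, 160.2 and 184 in miR-9/9* replicates 1, 2 and 3, against 319.8, 241 and 192 in empty vector replicates 1, 2 and 3. Every miR-9/9* array was below every empty vector array, and the miR-9/9* arrays lay close together while the empty vector arrays spread widely. The means were 173 ± 12.0 in miR-9/9* cells and 251 ± 64.6 in empty vector cells (SD, n = 3 each). The log2 fold change was -0.47, with a 95% interval of -0.88 to -0.07 without the block and -0.76 to -0.19 with it (limma adjusted p = 1.0 and 0.106). The difference depended on the replicate number, at -0.82 in number 1, -0.55 in number 2 and -0.05 in number 3. Leaving 1 number at a time out of both arms gave blocked limma adjusted p-values from 0.0192 to 0.400. The lowest came without number 3, the number with the smallest difference, where the value was -0.68. With number 1 left out the value was -0.30. Without empty vector replicate 1 alone it was -0.29. Centring the arrays on their medians gave -0.51 (blocked limma adjusted p = 0.0250). Tgfbr2 passed in 2 of 15 alternatives to the blocked fit, without number 3 and with centring. The other 2 Tgfbr2 probe sets, 1422019_at and 1425444_a_at, stayed at or below 4.81 on every array.

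Tgfbr1 (1420895_at) read 337, 431 and 337 in miR-9/9* replicates 1 to 3 and 363.5, 439.9 and 383.5 in empty vector replicates 1 to 3. The arms overlapped, number 2 was the highest in both, and each miR-9/9* array was slightly below its same-numbered partner. The log2 fold change was -0.10, with a blocked 95% interval of -0.27 to 0.06 (blocked limma adjusted p = 0.574). Its other probe sets, 1420893_a_at and 1420894_at, did not exceed 9.03. A difference between the responses of the receptor genes was not tested.

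Cxcr4 encodes the receptor of the chemokine CXCL12, which holds blood progenitors in the bone marrow. Its 1 probe set, 1448710_at, read 92.5, 74.1 and 49.5 in miR-9/9* replicates 1 to 3 and 101.7, 93.5 and 68.2 in empty vector replicates 1 to 3. The arms overlapped, but within each replicate number the miR-9/9* array was lower, and in both arms number 1 was the brightest and number 3 the dimmest. The means were 72.1 ± 21.6 in miR-9/9* cells and 87.8 ± 17.5 in empty vector cells (SD, n = 3 each), a log2 fold change of -0.25. The 95% interval was -0.75 to 0.25 without the block and -0.49 to -0.01 with it, and Cxcr4 did not pass in either fit (blocked limma adjusted p = 0.317). With 1 array left out the value ran from -0.42 without miR-9/9* replicate 1 to -0.055 without miR-9/9* replicate 3.

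Ptch1, the receptor that restrains Smoothened until a Hedgehog ligand binds, read 339, 405.5 and 322 in miR-9/9* replicates 1 to 3 on probe set 1428853_at. In empty vector replicates 1 to 3 it read 370.2, 383 and 355. The miR-9/9* arrays spread on both sides of the empty vector arrays. The log2 fold change was -0.06, with a blocked 95% interval of -0.23 to 0.11 (blocked limma adjusted p = 0.795). Probe sets 1439663_at and 1450824_at lay below the filter, at up to 12.9.

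**Figure D2:**
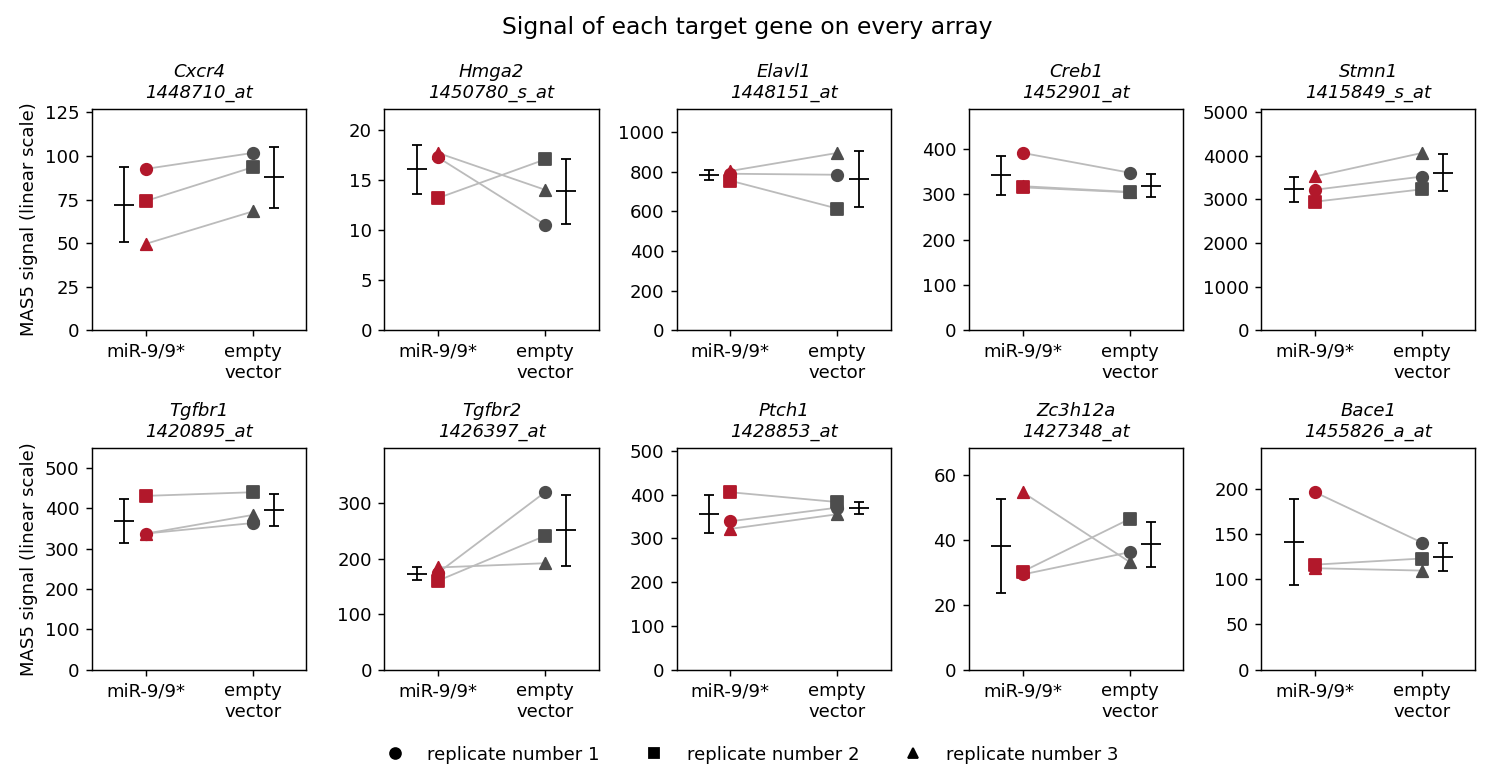
MAS5 signal on a linear axis for the brightest probe set of each gene, miR-9/9* in red on the left and empty vector in grey on the right of each panel, with the mean and SD of 3 arrays as black bars and same-numbered arrays joined by grey lines. Only in the Tgfbr2 panel do the arms not overlap, and the empty vector arrays there run from 192 to 319.8.

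Probe sets of the nuclear proteins lay on both sides of 0. Creb1, the transcription factor that carries the cyclic AMP response, had 6 probe sets, of which 5 were above the filter. The brightest, 1452901_at, read 391, 315 and 318 in miR-9/9* replicates 1 to 3 and 347.5, 304 and 305 in empty vector replicates 1 to 3. It was a little higher within each number, with a log2 fold change of 0.09 and a blocked interval of -0.07 to 0.25. The dimmest above the filter, 1421582_a_at, read 14.6, 2.40 and 23.0 in miR-9/9* cells and 16.8, 11.3 and 32.7 in empty vector cells. That probe set was lower within each number, with a log2 fold change of -0.33 and an interval without the block of -1.02 to 0.36, the only one of the 23 that reached a 2-fold fall. The value was -0.027 without miR-9/9* replicate 2, -0.095 without empty vector replicate 3 and -0.85 with a pseudocount of 1. The other 3, 1428755_at, 1423402_at and 1452529_a_at, had log2 fold changes of 0.07, -0.02 and -0.06, each with pairs of both signs. The probe sets of Creb1 thus disagreed in sign, 3 lower and 2 higher, and 0 of the 5 passed in either fit (lowest blocked limma adjusted p = 0.354).

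Hmga2 encodes a chromatin protein that binds AT-rich DNA and is made mainly in fetal and some tumour cells, and it is a textbook target of the let-7 microRNAs. Its probe set 1450780_s_at, barely above the filter signal of 12.9, read 17.3, 13.2 and 17.7 in miR-9/9* replicates 1 to 3 and 10.6, 17.1 and 14.0 in empty vector replicates 1 to 3. The arms overlapped and the pairs had both signs (log2 fold change 0.10, blocked limma adjusted p = 0.826). Its other 3 probe sets did not exceed 7.54 on any array.

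Elavl1, known as HuR, binds AU-rich elements and stabilises messages that carry them. All 5 of its probe sets above the filter had fold changes above 0, from 0.02 to 0.38 on the log2 scale. The brightest, 1448151_at, read 790.0, 755 and 804 in miR-9/9* replicates 1 to 3 and 784.9, 614 and 895 in empty vector replicates 1 to 3. These arms overlapped, and the pairs had both signs (log2 fold change 0.05, blocked interval -0.15 to 0.25). Probe set 1431037_a_at read 521, 446 and 469 in miR-9/9* cells and 401, 481 and 468.6 in empty vector cells, also with pairs of both signs (0.09). Probe set 1452858_at stood apart from these, at 78.6, 92.8 and 77.7 in miR-9/9* cells and 60.4, 82.0 and 42.9 in empty vector cells. It was higher within each replicate number and had a log2 fold change of 0.38 with an interval of -0.08 to 0.84 without the block and 0.09 to 0.66 with it, and did not pass (blocked limma adjusted p = 0.198). With 1 array left out the value ran from 0.19 to 0.56. Probe set 1428653_x_at is annotated to the same source sequence as 1452858_at, has the suffix of probe sets that may read unrelated sequences, and had a log2 fold change of 0.09. Probe set 1440464_at had 0.02, which turned to -0.01 with arrays centred on their medians. The remaining Elavl1 probe set, 1445521_at, lay below the filter, at up to 19.6, with pairs of both signs.

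Zc3h12a, also called Regnase-1 or MCPIP1, is a ribonuclease that degrades messages of inflammatory genes. Probe set 1427348_at read 29.3, 30.2 and 54.6 in miR-9/9* replicates 1 to 3 and 36.1, 46.3 and 33.1 in empty vector replicates 1 to 3. The highest miR-9/9* array was number 3, while numbers 1 and 2 lay below all empty vector arrays. The differences within a number were -0.20, -0.43 and 0.52, and the log2 fold change was -0.04 with a blocked interval of -0.44 to 0.36 (blocked limma adjusted p = 0.955). Its other probe set, 1443993_at, was at 11.6 to 16.4 in miR-9/9* cells and 13.7 to 17.5 in empty vector cells, with a log2 fold change of -0.03.

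Stmn1 encodes stathmin, a phosphoprotein that sequesters tubulin, destabilises microtubules and is abundant in dividing blood cells. Probe set 1415849_s_at read 3218, 2944 and 3522 in miR-9/9* replicates 1 to 3 and 3519.8, 3228 and 4061 in empty vector replicates 1 to 3. Probe set 1448113_at read 353, 474 and 379.9 in miR-9/9* cells and 393, 554 and 539.5 in empty vector cells. On both probe sets every miR-9/9* array was below its same-numbered partner, although the arms overlapped. The log2 fold changes were -0.16 and -0.29, with intervals without the block of -0.45 to 0.14 and -0.66 to 0.09. With the block the intervals were -0.34 to 0.03 and -0.47 to -0.10, and neither passed (blocked limma adjusted p = 0.436 and 0.135). With 1 array left out the values ran from -0.23 to -0.066 and from -0.44 to -0.20. Stmn1 was the only one of the 10 genes with more than 1 probe set above the filter whose probe sets were all lower in 3 of 3 pairs. Mouse pseudogenes of Stmn1 exist, and the suffix of 1415849_s_at marks probes shared by more than 1 transcript.

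Bace1 is the beta-secretase that makes the first cut in the amyloid precursor protein. All 4 of its probe sets were above the filter and they disagreed in sign, 3 higher and 1 lower. The brightest, 1455826_a_at, read 196.5, 116 and 112 in miR-9/9* replicates 1 to 3 and 141, 123 and 109.7 in empty vector replicates 1 to 3. Replicate number 1 was the brightest in both arms, and its miR-9/9* array alone lay above all empty vector arrays (log2 fold change 0.13, blocked interval -0.12 to 0.38). Probe set 1421824_at, at 66.0, 61.4 and 36.3 in miR-9/9* cells and 60.4, 39.5 and 25.0 in empty vector cells, was higher within each number. Its log2 fold change of 0.31 had an interval of -0.28 to 0.91 without the block and 0.02 to 0.60 with it, and did not pass (blocked limma adjusted p = 0.300). With 1 array left out the value ran from 0.088 without empty vector replicate 3 to 0.54 without empty vector replicate 1. Probe set 1421825_at was lower within each number, at -0.16, -0.35 and -0.002 in numbers 1, 2 and 3. Its arms were thus almost equal in number 3. The log2 fold change was -0.17 (blocked limma adjusted p = 0.652). Probe set 1450384_at had differences of 0.77, -0.65 and 0.19 in numbers 1, 2 and 3.

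**Figure D3:**
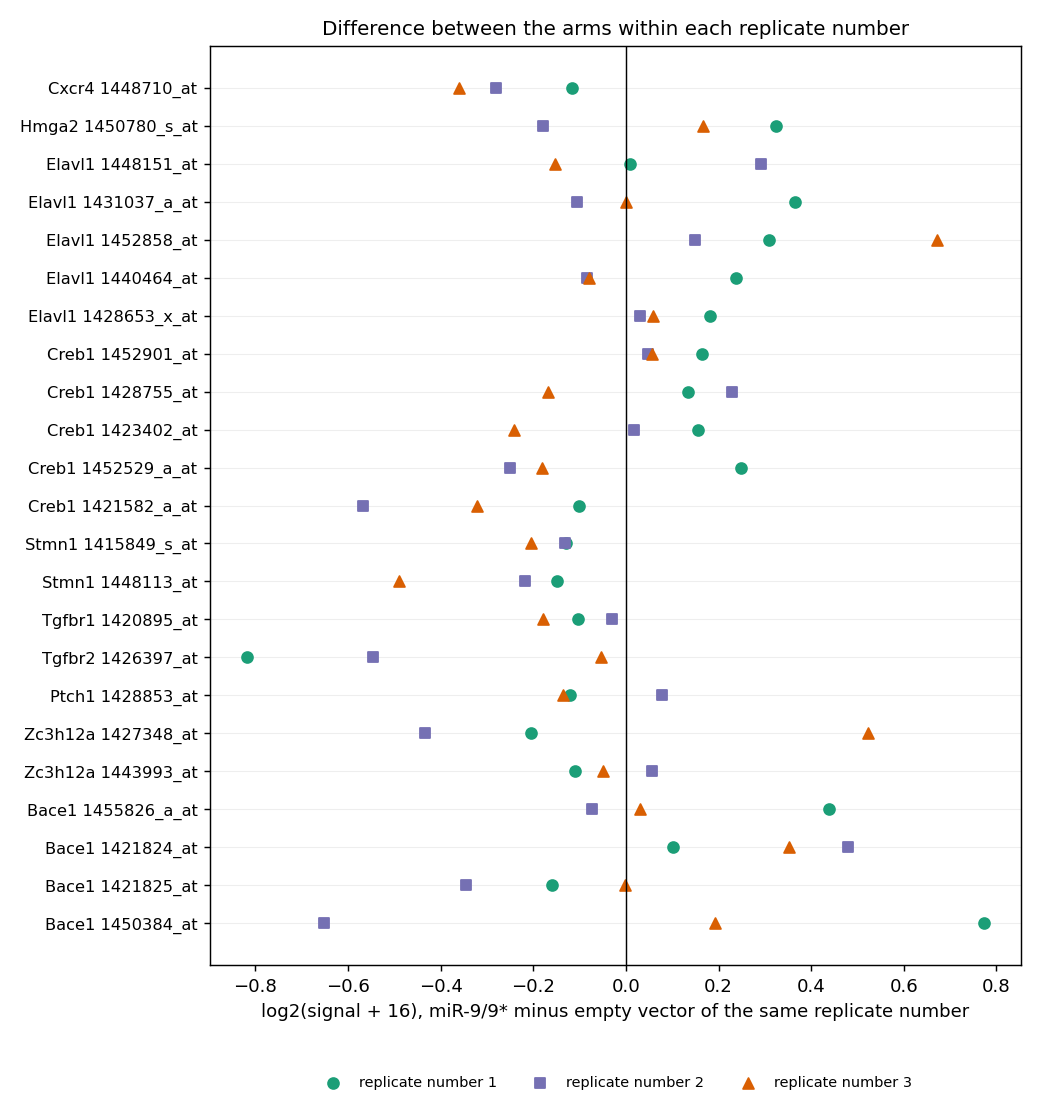
Difference in log2(signal + 16), miR-9/9* minus empty vector of the same replicate number, for the 23 probe sets above the filter, 1 symbol per number. All 3 symbols lie left of 0 for 7 probe sets and right of 0 for 4, and Tgfbr2 runs from -0.82 in number 1 to -0.05 in number 3.

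The signals of these genes varied more with the replicate number than with the construct. Of the sum of squares over the 6 arrays, the replicate number took a median of 72.2% and the arm 12.3% across the 23 probe sets, with 2 degrees of freedom for the number and 1 for the arm. Over all probe sets above the filter the medians were 65.6% and 9.10%. For Cxcr4 the number took 77.6% and the arm 19.3%, and for Tgfbr1 83.4% and 12.3%. Tgfbr2 was the only one of the 23 in which the arm took the largest share, 56.5%, with 18.2% for the number. Number 2 was the highest in both arms for Tgfbr1 and for Ptch1, and number 3 for the brightest Stmn1 probe set.

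**Figure D4:**
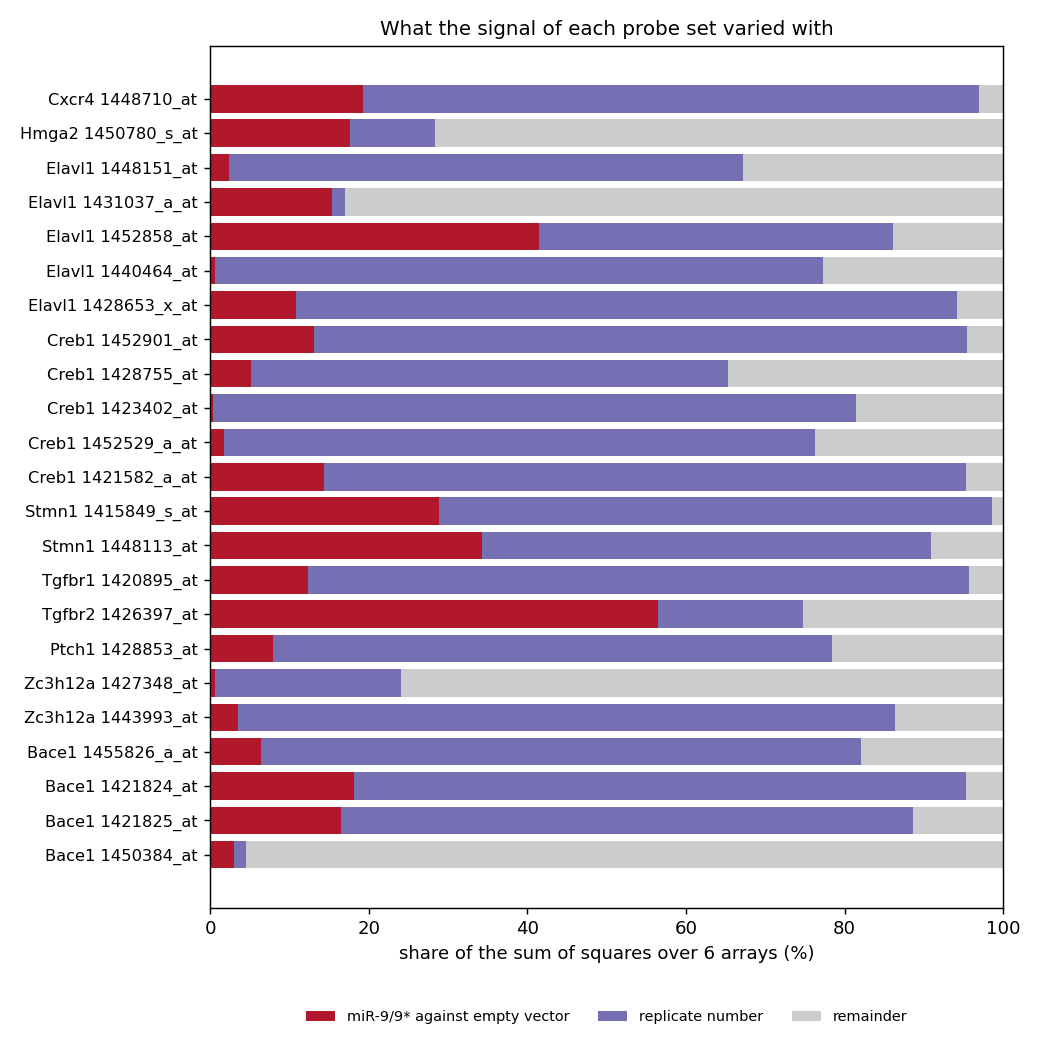
Share of the sum of squares of log2(signal + 16) over 6 arrays that went with the arm (red), the replicate number (violet) and the remainder (grey), in percent, for the 23 probe sets above the filter. The violet part is the widest for most probe sets, with a median of 72.2%, while for Tgfbr2 the red part is the widest at 56.5%.

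Genes that work with these 10 were counted on the same array, where they had a probe set annotated to them alone. Of 27 other transforming growth factor beta pathway genes 19 had a probe set above the filter, 33 probe sets in all. Of these 1 passed with the block, as lower, where 0.933% of all probe sets passed as lower. Without the block 0 passed. At an unadjusted p under 0.05 in limma the 33 held 9 with the block and 1 without it. Over all probe sets 7.81% were higher and 6.82% lower at that threshold with the block, and 1.69% and 1.89% without it. The median log2 fold change of the 33 was 0.13. The 1 that passed after adjustment was a probe set of Tgfb1, a ligand of Tgfbr2. Tgfb1 (1420653_at) read 225.7, 182.97 and 202 in miR-9/9* replicates 1 to 3 and 283, 272.6 and 263 in empty vector replicates 1 to 3. All miR-9/9* arrays were below all empty vector arrays, and the log2 fold change was -0.40 (limma adjusted p = 0.0392 in the blocked fit and 1.0 in the other). Tgfb1 no longer passed with any 1 replicate number left out (blocked limma adjusted p from 0.0829 to 0.119), nor with no filter (0.174), no variance trend (0.187), quantile normalization (0.0571) or its probe sets averaged (0.463), and the second Tgfb1 probe set, 1445360_at, stood at 0.16.

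Of 15 CREB family and coactivator genes 14 had a probe set above the filter, 34 probe sets with a median log2 fold change of 0.05. Of the 34, 1 passed, as higher and with the block only, where 1.02% of all probe sets passed as higher. The 1 that passed belongs to Rps6ka5, the kinase MSK1, which phosphorylates CREB and histone H3. Rps6ka5 (1440343_at) read 199.7, 221 and 146 in miR-9/9* replicates 1 to 3 and 147, 129.5 and 102 in empty vector replicates 1 to 3. Each miR-9/9* array was above its same-numbered partner, with a log2 fold change of 0.52 (blocked limma adjusted p = 0.0224). It no longer passed with replicate number 2 left out (blocked limma adjusted p = 0.0740) or number 3 (0.0576), nor with no filter (0.136) or no variance trend (0.129). The second Rps6ka5 probe set above the filter, 1431050_at, was also higher within each number, at 0.34 (blocked adjusted p = 0.0699).

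In 6 other lists around the 10 genes 0 of 111 probe sets above the filter passed in limma with or without the block. At an unadjusted p under 0.05 there were 13 with the block and 1 without it. Over all probe sets 7.81% were higher and 6.82% lower at that threshold with the block, and 1.69% and 1.89% without it. Of 15 Hedgehog pathway genes 5 had a probe set above the filter, 8 probe sets with a median log2 fold change of -0.14. Sufu, an inhibitor of the Gli factors, was at 87.4 ± 15.6 in miR-9/9* cells and 97.7 ± 11.9 in empty vector cells (SD, n = 3 each). Smo, the transducer that Ptch1 restrains, was at 62.0 ± 27.1 in miR-9/9* cells and 67.4 ± 24.6 in empty vector cells. Of 18 genes of CXCR4 signalling 15 were above the filter with a median of 0.05. The GTPase Rac2 was at 1503 ± 139 in miR-9/9* cells and 1506 ± 41.0 in empty vector cells. Message decay and AU-rich element factors were all above it, 13 of 13, with a median of 0.05, and the poly(A) binding protein Pabpc1 had a log2 fold change of -0.01. Microtubule and secretase genes, 10 of 12 above the filter, had a median of -0.02, and the tubulin Tubb5 a log2 fold change of 0.03. Of 9 paralogues of the 10 genes Elavl2 and Zc3h12c alone were above the filter, at 0.08 and 0.10. Of 6 genes around Hmga2 and let-7, 3 were above it, among them Ccna2 at 0.05, and Lin28b, the inhibitor of let-7 processing, did not exceed 1.04.

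Of 11 further genes reported as miR-9 targets, only Ccng1 and Uhrf1 had a probe set above the filter, 5 in all with a median of -0.28. Of the 5, 2 passed as lower with the block, where 0.933% of all probe sets passed as lower, and these 2 belong to 1 gene, Ccng1. In the fit without the block 0 of the 5 passed. Ccng1, the cyclin G1 gene and a p53 target, read 1042, 772 and 1273 in miR-9/9* replicates 1 to 3 and 1886, 1465 and 2427.5 in empty vector replicates 1 to 3 on probe set 1420827_a_at. The arms did not overlap, and it fell by 0.89 on the log2 scale (limma adjusted p = 0.000327 in the blocked fit and 0.667 in the other). A second probe set, 1450017_at, fell by 0.55 with the block (limma adjusted p = 0.00544, and 0.903 in the unblocked fit). It no longer passed in the blocked fit with no filter (0.0567) or no variance trend (0.0911). The remaining Ccng1 probe set above the filter, the median of the 5 at -0.28, did not pass in either fit. Averaging the Ccng1 probe sets above the filter gave -0.57. Uhrf1 had log2 fold changes of 0.08 and -0.01 on 1415810_at and 1415811_at. Genes of this list that are known from neural cells, such as Onecut2, Nr2e1 and Map1b, lay below the filter.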

How the data were processed

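Messenger RNA was measured on 6 one-colour Affymetrix arrays, from 6 ug of total RNA extracted with Trizol, per the labels' protocols. The deposited values are signal intensities made with MAS5 (version not stated there), per the submitters' processing notes. They are linear, above 0 and have a trimmed mean of 100 on each array. No detection calls were used. The number of arrays limits the precision.

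Probe sets were named from a 2016 platform annotation: 34945 of 45037 that are no controls have 1 symbol, 932 several and 9160 none. Tests used log2(signal + 16) and kept the deposited scaling. They left out probe sets whose mean was under the median of all, a signal of 12.9. The model was fitted by limma 3.58.1 under R 4.3.3, with lmFit and trended eBayes, without a block and with the replicate number as a block, over 22519 probe sets. To check the pairing, each miR-9/9* array's deviation from its arm's mean was set against that of its same-numbered partner, and r across probe sets was 0.492, 0.598 and 0.687, over the limit of 0.1, so the numbers were taken to pair the samples, which the labels do not state. The code was tested on simulated data. The block leaves 2 residual degrees of freedom.

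The genes, lists and tests were chosen with earlier results of these data known. For the 10 genes all 23 probe sets above the filter are named, but only some of those below it. From each list the genes passing in either fit are named, up to 4, or else up to 2 with the highest mean; others were named after their values were seen. Alternatives covered pseudocounts of 1 and 64, filters, scalings, variance models, array weights, 1 value per gene and left-out arrays.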

Additional observations from a re-analysis of the deposited data

How the results depend on the processing

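For the 10 genes, 0 probe sets passed under all 18 alternatives to the fit without a block and under 13 of 15 alternatives to the fit with it. The exceptions were both Tgfbr2, 1 probe set each, with arrays centred on their medians (-0.51) and without replicate number 3 (-0.68). Leaving out 1 replicate number gave 0 to 1. Over all probe sets the fit without a block passed 2, both higher. It passed 0 with a pseudocount of 64 (802 at an unadjusted p under 0.05) or no filter (1944), 1 with arrays centred on their medians, 23 with array weights, 6 with 1 probe set per gene, 5 with probe sets averaged, and 0 to 7 without 1 array. With the replicate block it passed 439, 229 higher and 210 lower. That was 54 without a filter, 46 without a variance trend, 232 with probe sets averaged, 282 with the number as a random block, and 234 to 453 without 1 number. Centring gave 212 higher and 319 lower. The cause of these shifts was not tested. The paired fit changed no call of the 10 genes.

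Some log2 fold changes near 0 changed sign. Elavl1 1440464_at was at -0.0092 with centred arrays. With array weights Creb1 1423402_at was at 0.091 and Creb1 1452529_a_at at 0.085, and with the replicate block added Creb1 1423402_at was at 0.0059. Averaging the probe sets of a gene gave Creb1 -0.052 and Bace1 0.095. With 1 array left out and no block, the ranges that crossed 0 were -0.097 to 0.17 for Elavl1 1448151_at, -0.083 to 0.15 for Elavl1 1440464_at, -0.0082 to 0.15 for Creb1 1452901_at, -0.030 to 0.17 for Creb1 1428755_at, -0.13 to 0.15 for Creb1 1423402_at and -0.18 to 0.10 for Creb1 1452529_a_at. The others were -0.15 to 0.0058 for Ptch1 1428853_at, -0.25 to 0.073 for Zc3h12a 1427348_at, -0.080 to 0.037 for Zc3h12a 1443993_at, -0.10 to 0.26 for Bace1 1455826_a_at and -0.087 to 0.31 for Bace1 1450384_at. With the replicate block and 1 number left out, they were -0.0061 to 0.25 for Hmga2 1450780_s_at, -0.071 to 0.15 for Elavl1 1448151_at, -0.052 to 0.18 for Elavl1 1431037_a_at, -0.082 to 0.078 for Elavl1 1440464_at, -0.016 to 0.18 for Creb1 1428755_at, -0.11 to 0.087 for Creb1 1423402_at and -0.21 to 0.034 for Creb1 1452529_a_at. For Zc3h12a 1427348_at they were -0.32 to 0.16, with 0.045 without number 1, for Zc3h12a 1443993_at -0.079 to 0.0031, for Bace1 1455826_a_at -0.021 to 0.23 and for Bace1 1450384_at -0.23 to 0.48.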
